A study of Drosophila melanogaster with 16 samples.

Results

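The nuclear genes of oxidative phosphorylation were followed through ribosome-bound and whole-lysate RNA of adult male Drosophila melanogaster. They were taken by name: every gene whose symbol starts with ND- (complex I), Sdh (complex II), UQCR (complex III), COX and a digit (complex IV) or ATPsyn (complex V). The rule found 88 of the 17489 genes in the count tables. By their symbols, 63 were ubiquitous subunits, 24 were testis-type copies, whose names end in L for "like", and 1, Sdhaf3, was an assembly factor. Complex I held 34 subunits and 6 copies, complex II 4 and 3, complex III 6 and 3, complex IV 8 and 8, and complex V 11 and 4. The name rule uses no levels, but genes, classes and lists were chosen with earlier results of these data known.

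The flies were made to profile the sweet taste neurons. All of them carried Gr5a>UAS-Rpl3-3XFLAG, so that the driver of Gr5a, a sweet taste receptor gene, put a FLAG tag on the ribosomal protein RpL3. Tagged ribosomes were pulled down and their RNA was sequenced (TRAP), which gave the Gr5a fraction, and the RNA of the whole lysate gave the input. Each of the 16 libraries came from 300 heads, and the tag marks only the cells in which the Gr5a driver is on. Flies of SD7 had eaten a sugar diet with 30% sucrose for 7 days, and flies of CD7 a control diet with 5% sucrose for 7 days. In the Gr5a fraction SD7 had 2 libraries and CD7 had 3, and in the input SD7 had 2 and CD7 had 3. Flies of SD3 had eaten the sugar diet for 3 days (2 Gr5a libraries). Flies of SD>CD went to the control diet for 7 days after 7 days of sugar (2 Gr5a libraries), and flies of CD>CD stayed on the control diet for the same 14 days (2 Gr5a libraries). Diets began at day 5, and flies were taken at day 12 in the 7-day groups and at day 19 in the 14-day groups. The labels name no other days, and the age of the SD3 flies is not given here. The study states that SD3 and SD7 had a control diet group of matching age. SD3 is set against CD7 below, so days on the diet differ as well as the diet. Replicates are called biological in the labels, which do not say how the collections were separated, so p-values measure the spread between these libraries only.

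Oxidative phosphorylation runs on the inner membrane of the mitochondrion. Complexes I to IV pass electrons from NADH and succinate to oxygen and, except for complex II, pump protons, and complex V, the ATP synthase, makes ATP as the protons flow back. Most subunits are encoded in the nucleus and are used by all cells, while a small core of complexes I, III, IV and V is encoded in mitochondrial DNA and translated on mitochondrial ribosomes, which have proteins of their own. In flies many nuclear subunits have a duplicated copy, often a retrotransposed one, that is read mainly in the testis, where sperm are built around a giant mitochondrion.

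Library facts bear on all that follows. Gene counts per library ran between 22901154 and 55290069. Counts that matched the strand of the gene made up 93.62 to 97.28% of the strand-specific counts, and these same-strand counts are used throughout. They are given as counts per 1000000 gene counts with TMM scaling (CPM), and 87 of the 88 genes had enough counts to be tested. The 5 sweet taste neuron markers summed to between 11.7 and 24.6 CPM in the Gr5a libraries, against 1.31 to 2.15 CPM in the inputs. Photoreceptor markers summed to between 12090 and 29608 CPM in the Gr5a libraries, against 31800 to 41625 CPM in the inputs. Values of the Gr5a fraction thus cannot be read as those of taste cells alone. Markers of organs outside the head were read as well: 42 testis genes summed to 595, 1060 and 897 CPM in Gr5a CD7 and 1802, 2546 and 2686 CPM in input CD7. Libraries whose labels or values were at odds lay in the 14-day groups. Both SD>CD libraries were placed by their condition label, since their titles name them CD>CD. Of the CD>CD libraries, replicate 2 had 19.5 CPM of the neuropeptide gene CNMa and 1.59 CPM of the larval serum protein gene Lsp2, where replicate 1 had 1.60 and 632 CPM. In the inputs CNMa stood at 24.0 and 27.6 CPM in SD7, against 3.21, 4.07 and 4.88 CPM in CD7. Lsp2 stood at 5.38 and 1.04 CPM in input SD7, against 612, 624 and 245 CPM in input CD7, so that replicate 2 of CD>CD sat with the sugar libraries at both genes. Results that rest on the 14-day groups are therefore given with and without single libraries.

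Ubiquitous subunits held a narrow band in every library. Their summed level was 5890.5 and 6768 CPM in Gr5a SD7 and 6910.5, 6197 and 7169 CPM in Gr5a CD7. SD3 had 7392 and 7545 CPM. The 14-day groups had 6264 and 6108 CPM in SD>CD and 5214 and 6471 CPM in CD>CD. The inputs had 6486 and 7854 CPM in SD7 and 8175, 7572 and 8363 CPM in CD7. The whole range of the sum was thus from 5214 CPM, in CD>CD replicate 1, to 8363 CPM, in an input of CD7. Gene by gene, the ratio of the highest to the lowest of the 16 libraries had a median of 1.80, and the smallest ratio, 1.40, was that of ND-42, an accessory subunit of complex I.

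Testis-type copies moved far more. Their summed level was 118 and 57.3 CPM in Gr5a SD7 and 51.0, 80.5 and 70.2 CPM in Gr5a CD7, with 63.1 and 47.2 CPM in SD3. SD>CD had 12.7 and 15.8 CPM and CD>CD 39.7 and 46.3 CPM. The inputs had 65.4 and 142 CPM in SD7 and 150.0, 187 and 212 CPM in CD7. SD>CD lay below every other group, and the inputs of CD7 above. As a sum the copies were a small addition to the chain in every library, between 0.202 and 2.53% of the ubiquitous sum.

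**Figure D1:**
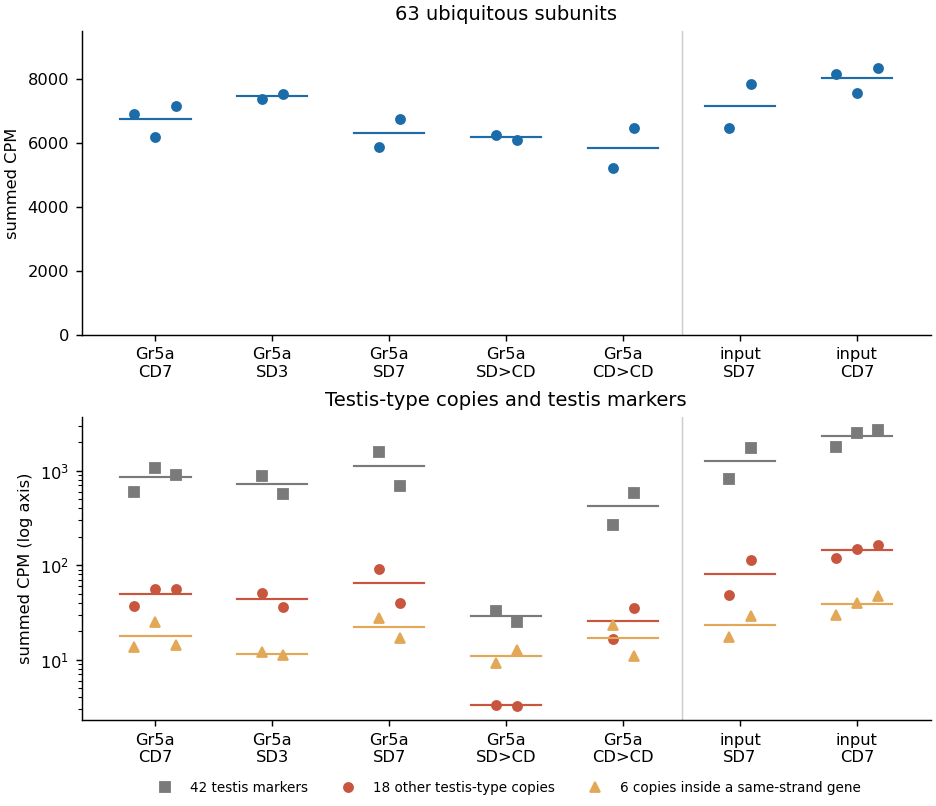
Summed CPM per library of 63 ubiquitous subunits (top panel, linear axis from 0) and, on a log axis, of 42 testis markers (grey squares), 18 testis-type copies that do not lie within a longer gene of their strand (red circles) and 6 copies that do (yellow triangles); points are libraries and bars are group means. The ubiquitous sums stay between 5214 and 8363 CPM, while the red circles and grey squares are lowest in both SD>CD libraries and the yellow triangles of SD>CD and CD>CD overlap.

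Per kilobase of exon, the most abundant subunits of Gr5a CD7 were ATPsynC, which forms the rotating membrane ring of the ATP synthase (598 CPM per kb), COX6B of complex IV (317 CPM per kb) and ATPsynF of complex V (292 CPM per kb). The median ubiquitous subunit had 65.3 CPM per kb in Gr5a CD7 and 77.3 CPM per kb in input CD7. The median copy had 2.41 CPM per kb in Gr5a CD7 and 9.61 CPM per kb in input CD7. In SD>CD the median copy had 0.18 CPM per kb, against 1.46 CPM per kb in CD>CD. Set against its ubiquitous counterpart (the subunit of the same name for 20 copies, levy for COX6AL and COX6AL2, cype for COX6CL and sun for ATPsynepsilonL), a copy reached a median of 3.04% of the subunit's level per kb in Gr5a CD7 and 7.48% in input CD7, over 24 pairs. The highest pair in both groups was UQCR-11L, at 65.1% of UQCR-11 in Gr5a CD7 and 63.2% in input CD7. This copy was thus not at a low level beside its subunit.

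A pair of genes did not behave as their class name says. ND-MNLL, a complex I subunit, had 0 counts in all 16 libraries, and its exons coincide with those of CG45089 on the same strand, so reads there could not be given to either gene. ND-B8, another complex I subunit, lies at 2L:4454626-4455207 on the plus strand and overlaps Gs1l on the other strand. It had 0.303, 0.916 and 0.645 CPM in Gr5a CD7 and 3.00, 2.14 and 4.80 CPM in input CD7, the lowest level per kb of all tested subunits in Gr5a CD7. Its highest library was 115-fold above its lowest, as in several of the testis-type copies. The assembly factor Sdhaf3 stayed at 2.03 to 6.51 CPM and was called in no comparison.

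The gene models of the classes differ. Of the 24 copies, 9 (37.5%) had a single exon block, against 2 of the 63 subunits (3.17%) and 2265 of 13679 protein-coding genes (16.6%). On the X chromosome lay 1 copy, SdhBL, and 12 subunits (19.0%), where all protein-coding genes had 15.6%. Median exon length was 744 bases in copies, 853 bases in subunits and 1725 bases in all protein-coding genes. Copies stand next to their subunit in 3 cases, COX5BL at 122 bp from COX5B, COX7CL at 281 bp from COX7C and COX7AL at 2625 bp from COX7A. A further 6 copies lie within a longer gene of the same strand without sharing exons, namely ND-51L1 in Smurf, ND-51L2 in Trpm, SdhAL in CG44837, UQCR-11L in Acsl, COX6AL in Cyp4aa1 and ATPsynCF6L in Con. Reads of an unspliced host transcript would be counted for these 6, and whether any were was not tested. COX6AL2 shares exon sequence with Ir75d, an ionotropic receptor gene on its strand, and reads in the shared part cannot be told apart.

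Which of these mRNAs were bound to tagged ribosomes was asked by setting the Gr5a fraction against the input. On the control diet, 20 of 24 testis-type copies were lower in the fraction and none was higher, and of the 62 ubiquitous subunits tested 9 were lower and 3 higher (edgeR quasi-likelihood F test, adjusted p under 0.1 over 14185 genes, as in all calls below). Of all genes 46.2% were called, 22.0% lower and 24.3% higher. The median log2 fold change was -1.36 over the copies and -0.11 over the subunits, beside 0.02 over all genes. Copies are short, with a median exon length of 744 bases. All genes of 400 to 1000 bases had a median of -0.42, and those over 1000 bases 0.09. The part of length in these values was not tested. With the replicate number as a block, since the numbers pair these libraries, 52 genes of the chain were called, among them 22 copies lower, 25 subunits lower and 5 higher. Calls over all genes rose as well, from 6556 to 7915, of which 3873 were lower. Without Gr5a CD7 replicate 2, 5 subunits were higher and 3 lower.

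In complex V, the catalytic subunit ATPsynbeta had 548, 523 and 546 CPM in Gr5a CD7 and 867, 733 and 851 CPM in input CD7. All 3 fraction values lay below the inputs (log2 fold change -0.48 ± 0.11 SE, edgeR adjusted p = 0.00725). The subunit of the rotating stalk, ATPsyngamma, had 170.3, 166 and 177 CPM in Gr5a CD7 and 161, 155 and 162 CPM in input CD7, with all 3 fraction values above the inputs (0.22 ± 0.08, edgeR adjusted p = 0.0542). ATPsynO, of the fixed stalk, had 99.5, 75.5 and 92.5 CPM in Gr5a CD7, against 119, 110.3 and 132 CPM in input CD7, and was not called (-0.31 ± 0.16, edgeR adjusted p = 0.155).

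SdhA, the flavoprotein of complex II that oxidises succinate, had 252, 276 and 262 CPM in Gr5a CD7 and 355, 356 and 395 CPM in input CD7. Its fraction values were all lower (-0.37 ± 0.09, edgeR adjusted p = 0.00876), and they were lower on the sugar diet as well, with 251 and 259 CPM in Gr5a SD7 and 325 and 384 CPM in input SD7 (-0.49 ± 0.11, edgeR adjusted p = 0.0149). The other subunits of complex II did not pass: SdhB, the iron-sulfur subunit, had a log2 fold change of 0.14 ± 0.15 on the control diet, and the membrane anchors SdhC and SdhD had -0.09 ± 0.18 and -0.13 ± 0.17.

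Complex I gave 6 calls on the control diet, 5 of them lower. ND-49 and ND-20, both of the core that carries electrons to the quinone site, were among these. ND-49 had 74.3, 69.8 and 75.3 CPM in Gr5a CD7 and 112, 93.3 and 105 CPM in input CD7 (-0.38 ± 0.13, edgeR adjusted p = 0.0445). ND-20 had 69.1, 65.9 and 67.7 CPM in Gr5a CD7 and 87.6, 80.8 and 88.2 CPM in input CD7 (-0.22 ± 0.10, edgeR adjusted p = 0.0992). Every fraction value of either gene was below every input value. ND-30, another core subunit, was the 1 subunit of the complex called higher, with 61.6, 55.0 and 67.3 CPM in Gr5a CD7 and 53.9, 49.4 and 56.8 CPM in input CD7, which overlap (0.32 ± 0.12, edgeR adjusted p = 0.0639). ND-AGGG, an accessory subunit, had the lowest fold after ND-B8, with 18.7, 13.5 and 21.0 CPM in the fraction and 39.0, 21.7 and 34.5 CPM in the input (-0.72 ± 0.29, edgeR adjusted p = 0.0758). ND-B8 itself was -2.29 ± 0.54 (edgeR adjusted p = 0.00896), within the range of the copies.

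Among the copies, ATPsynCF6L of complex V had 1.87, 1.87 and 1.26 CPM in Gr5a CD7 and 5.95, 7.92 and 12.0 CPM in input CD7 (-2.24 ± 0.30, edgeR adjusted p = 5.76e-04). COX7AL2, a copy of a small complex IV subunit, had 1.82, 1.08 and 2.64 CPM in the fraction and 10.3, 7.01 and 15.2 CPM in the input (-2.43 ± 0.48, edgeR adjusted p = 0.00405). UQCR-6.4L of complex III had 0.581, 1.29 and 0.699 CPM in the fraction and 4.15, 3.95 and 4.26 CPM in the input (-2.14 ± 0.42, edgeR adjusted p = 0.00405). The fraction lay below the input without overlap in each of the 3. The 4 copies that were not called were SdhBL (-0.78 ± 0.44), ND-51L2 (-0.65 ± 0.40), UQCR-11L (-0.29 ± 0.28) and ATPsynepsilonL (-0.10 ± 0.53).

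On the sugar diet fewer genes were called. Copies were lower in 2 of 24 cases and subunits in 5 of 62, and none was higher, where 18.7% of all genes were called and 7.95% were lower. The 2 copies were again UQCR-6.4L, with 0.805 and 0.333 CPM in Gr5a SD7 and 1.77 and 3.83 CPM in input SD7 (-2.30 ± 0.53), and COX7AL2, with 1.13 and 3.35 CPM in Gr5a SD7 and 6.99 and 11.4 CPM in input SD7 (-2.03 ± 0.58), without overlap in either. The subunits were SdhA, ND-AGGG (-1.05 ± 0.36), ATPsynC (-0.41 ± 0.14), ND-20 (-0.41 ± 0.12) and ATPsynbeta (-0.40 ± 0.13). Medians were -0.26 over the copies, -0.15 over the subunits and 0.00 over all genes. That of the copies changed sign with single libraries, from -0.77 without Gr5a SD7 replicate 1 to 0.43 without input SD7 replicate 2. No member was called when the SD7 groups were fitted alone, and leaving out single libraries gave 1 to 7 calls.

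**Figure D2:**
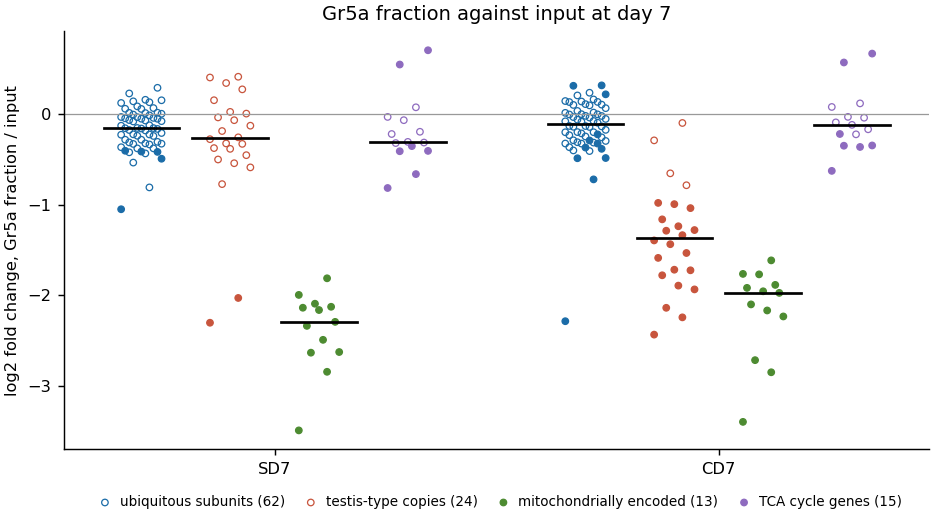
Log2 fold change of the Gr5a fraction over the input for SD7 and CD7, 1 point per gene in each set; filled points passed the test at an adjusted p under 0.1 and black bars are medians. Copies sit at a median of -0.26 in SD7 and -1.36 in CD7, subunits at -0.15 and -0.11, and mitochondrially encoded subunits at -2.29 and -1.97.

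Outside the name rule the chain looked different by genome. All 13 mitochondrially encoded subunits were lower in the fraction on both diets, with medians of -2.29 in SD7 and -1.97 in CD7, and on the control diet from -3.40 for mt:ND1 of complex I to -1.61 for mt:CoIII of complex IV. Their sum was 8244 to 14518 CPM over the Gr5a libraries, against 46295 to 60400 CPM in the inputs. Of 9 nuclear chain genes with other names, 4 were lower on the control diet: Ant2 (-1.21 ± 0.28) and sesB (-0.54 ± 0.12), which are ADP/ATP translocases, ox of complex III (-0.62 ± 0.22) and Cyt-c1 of complex III (-0.31 ± 0.10). The catalytic partner of ATPsynbeta, blw, had 871, 894 and 970.5 CPM in Gr5a CD7 and 920.5, 987 and 998 CPM in input CD7, which overlap (0.03 ± 0.09). Both testis forms, Cyt-c-d (-1.39 ± 0.31), a cytochrome c, and Cyt-c1L (-1.20 ± 0.41), were lower. Of 15 genes of the TCA cycle, 7 were called on the control diet, 5 lower and 2 higher, and the 3 subunits of the NAD-linked isocitrate dehydrogenase were among the lower on both diets (on the control diet Idh3a -0.22 ± 0.09, Idh3b -0.62 ± 0.08 and Idh3g -0.35 ± 0.08).

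Testis markers moved with the copies. In CD7 35 of 42 were lower in the fraction, with a median of -1.45, and in SD7 0 of 42 were called by edgeR (2 at an unadjusted p under 0.05 and 2 by DESeq2), with a median of -0.20. Of these 42 genes 28 were above 0 in every library, and their sum was 1574 and 694 CPM in Gr5a SD7 and 816 and 1729 CPM in input SD7, beside the CD7 values above. None of the 88 genes is on that list. In bulk RNA of heads, fewer cells of a type and less RNA per cell cannot be told apart, and the part of testis RNA in the result of the copies was not tested. Muscle markers, of which 15 of 16 were above 0 in every library, were lower in the fraction for 7 in SD7 and 9 in CD7. They summed to 5028 and 6011 CPM in Gr5a SD7 and 6727 and 9303 CPM in input SD7. On the control diet they summed to 4628, 6458 and 5336 CPM in Gr5a CD7 and 7259, 7910 and 9981 CPM in input CD7, and their part in the results of the subunits was not tested either. Photoreceptor markers had 15071, 20626 and 13384 CPM in Gr5a CD7, against 37563, 34915 and 31800 CPM in input CD7. Fat body markers had 5947, 7838 and 4838 against 19090, 15149 and 13872 CPM. Neuron markers were also lower in the fraction, with 6689, 9160 and 7154 against 9465, 9619 and 10700 CPM. Accessory gland markers had 264, 336 and 314 against 1207, 948 and 1282 CPM. Midgut markers went the other way, with 5642, 3142 and 2908 against 1415, 1144 and 1077 CPM. So did glia markers, with 2931, 2537 and 2693 against 2246, 2227 and 2135 CPM.

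Whether the fraction responded to diet otherwise than the input was tested as the interaction of diet and fraction. No gene of any kind passed with edgeR (0.0% of 14185), and DESeq2 called 12 genes, 0 of them of the chain. At an unadjusted p under 0.05 there were 9 copies, all positive, and 0 subunits. The share of all genes at such a p is not given, so this count has no background. Medians were 1.06 over the copies, -0.04 over the subunits and -0.05 over all genes. All genes of 400 to 1000 bases had a median of 0.34, and those over 1000 bases -0.12. SdhBL shows the values behind the median of the copies. It had 20.1 and 6.29 CPM in Gr5a SD7 and 7.98, 12.1 and 12.5 CPM in Gr5a CD7, and in the inputs 5.20 and 16.4 CPM in SD7 and 15.8, 22.8 and 22.5 CPM in CD7. Its 2 sugar libraries stood apart from each other in both fractions, and replicate 1 was the higher in the fraction and replicate 2 in the input.

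In whole heads the sugar diet called no gene of the chain with edgeR (0.0705% of all genes). At an unadjusted p under 0.05 there were 4 copies, all lower, and 0 subunits, a count given without the share of all genes. DESeq2 called 2 copies, COX4L and COX7AL, among 870 of all genes. COX4L, the copy of a structural subunit of complex IV, had 5.40 and 14.2 CPM in input SD7 and 17.3, 19.9 and 22.3 CPM in input CD7, without overlap (-0.94 ± 0.36, edgeR adjusted p = 0.228). Medians were -0.76 over the copies, -0.04 over the subunits and 0.02 over all genes, and -0.79 over the testis markers, whose sum was 816 and 1729 CPM in input SD7 and 1802, 2546 and 2686 CPM in input CD7. All genes of 400 to 1000 bases had a median of -0.31, and those over 1000 bases 0.07. For 56 of the 62 subunits the 95% interval of the fold change lay within 1.5-fold either way, and for 61 within 2-fold. ATPsynbeta had the values 600.1 and 732 CPM in SD7 and 867, 733 and 851 CPM in CD7, which leave an interval of -0.48 to 0.06 on the log2 scale.

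**Figure D3:**
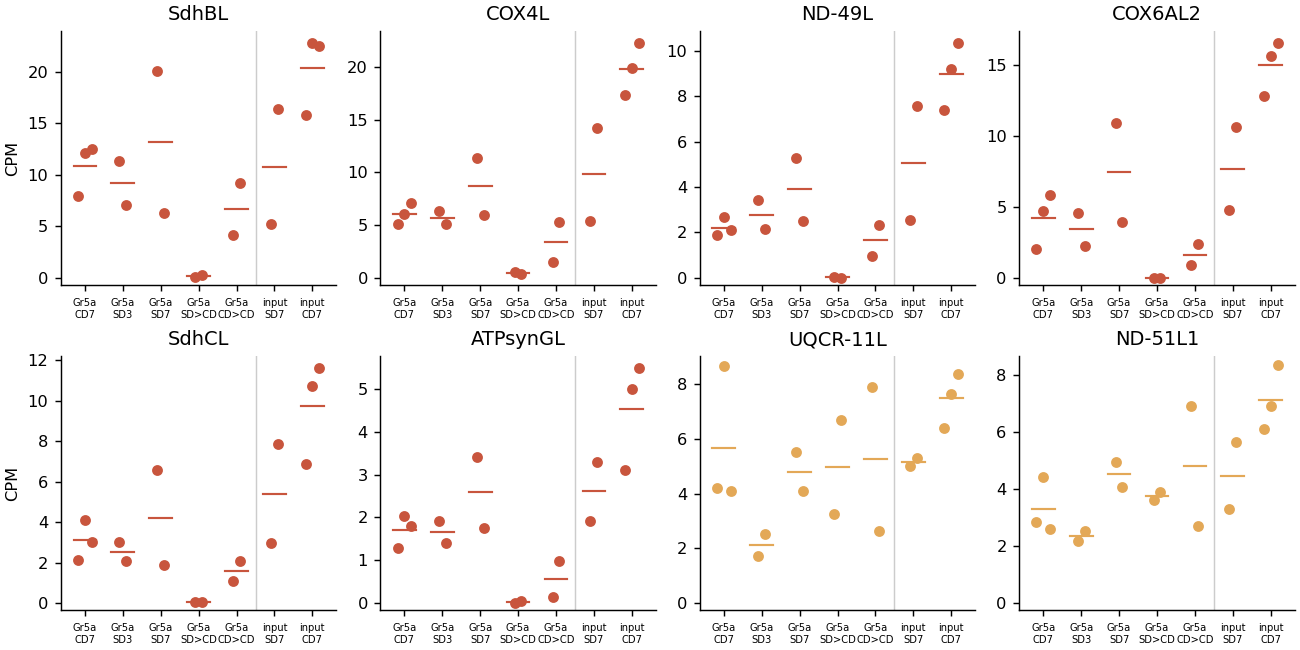
CPM of 8 testis-type copies in each library, with 1 panel per gene, a linear axis from 0, points for libraries and bars for group means; UQCR-11L and ND-51L1 (yellow) lie inside a longer gene of their strand. SdhBL has 0.125 and 0.257 CPM in SD>CD and 4.21 and 9.20 CPM in CD>CD, while UQCR-11L has 3.26 and 6.71 CPM in SD>CD and 7.91 and 2.65 CPM in CD>CD.

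The response of the Gr5a fraction to sugar was followed over time, first at 3 days. In the Gr5a fraction SD3 against CD7 called no gene of the chain with edgeR, where 0.0436% of all genes passed. At an unadjusted p under 0.05 there were 11 subunits, all higher, and 1 copy, lower. DESeq2 called 0 of the chain and 478 of all genes. The share of all genes at such a p is not given here. Of the 62 subunits 58 had a positive log2 fold change, with a median of 0.24, beside -0.28 over the copies and -0.08 over all genes. SdhC, a membrane anchor of complex II, had 70.0 and 67.9 CPM in SD3 and 51.2, 39.6 and 51.8 CPM in CD7 (0.53 ± 0.18, unadjusted p = 0.0136, edgeR adjusted p = 0.308). The values of SD3 lay above those of CD7, and the same held for SdhD, with 58.3 and 67.8 CPM in SD3 and 48.1, 36.3 and 55.1 CPM in CD7 (0.43 ± 0.21, edgeR adjusted p = 0.364). SdhA went the other way, with 250.0 and 244 CPM in SD3 and 252, 276 and 262 CPM in CD7 (-0.10 ± 0.10). Intervals lay within 1.5-fold for 29 of the 62 subunits and within 2-fold for 60.

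Further core subunits were also above CD7 at 3 days in their fitted values without passing. ND-51, which binds NADH, had 102 and 126 CPM in SD3 and 97.2, 85.8 and 95.4 CPM in CD7 (0.29 ± 0.13), and ND-23, an iron-sulfur subunit, had 74.8 and 78.3 CPM in SD3 and 63.6, 66.2 and 66.0 CPM in CD7 (0.22 ± 0.10). SdhB had 166 and 160.5 CPM in SD3 and 122, 119 and 134 CPM in CD7 (0.38 ± 0.14). None of the 3 passed (edgeR adjusted p = 0.341, 0.328 and 0.312). The mitochondrially encoded subunits differed in the other direction, with a median of -0.72. Of these 13, 12 were lower at an unadjusted p under 0.05, none was called by edgeR and 8 were called by DESeq2. Summed levels of several marker lists were also lower in SD3, although 1 midgut marker was the only gene of those lists that was called. All 9 neuron markers had a negative fold change, 6 of them at an unadjusted p under 0.05, and they summed to 5766 and 5384 CPM in SD3 and 6689, 9159.9 and 7154 CPM in CD7. Of 16 muscle markers 13 were negative, 7 of the 16 had such a p, and the sum was 4018 and 3153 CPM in SD3 and 4628, 6458 and 5336 CPM in CD7. The 6 tested fat body markers were all negative, 5 with such a p, with a sum of 3054 and 3469 CPM in SD3 and 5947, 7838 and 4838 CPM in CD7. Of 21 tested midgut markers 11 had such a p, and the sum was 2571 and 2322 CPM in SD3 and 5642, 3142 and 2908 CPM in CD7. The part of these cell types in the values of the chain was not tested. SD3 and CD7 also differ in their library numbers, which fall into 2 series, with SD3, CD>CD and SD>CD in one and CD7, SD7 and the inputs in the other, and diet and series cannot be told apart here. Within its own series, SD3 against CD>CD had 27 subunits and 1 copy higher, with 9.05% of all genes called higher, but there 3 and 14 days are compared.

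At 7 days the Gr5a fraction showed no call at all: 0.0% of 13758 genes passed for SD7 against CD7 with edgeR, and 0 of the chain's 87 genes had an unadjusted p under 0.05. Over all genes 772 had such a p, and DESeq2 called 57 genes, 0 of them of the chain. The subunits had a median of -0.05, with intervals within 1.5-fold for 52 of 62 and within 2-fold for 61. ND-75, the largest subunit of complex I, had 164 and 175 CPM in SD7 and 179, 208 and 190.2 CPM in CD7 (-0.18 ± 0.10), with both SD7 values below the CD7 values. ND-42 had 63.3 and 70.8 CPM in SD7 and 69.2, 68.1 and 71.3 CPM in CD7 (-0.05 ± 0.11). Of the core proteins of complex III, UQCR-C1 had 239.8 and 248 CPM in SD7 and 241, 270.3 and 251 CPM in CD7 (-0.06 ± 0.10), and UQCR-C2 had 169.9 and 186 CPM in SD7 and 178, 202 and 198 CPM in CD7 (-0.12 ± 0.11). COX4 of complex IV had 121 and 145 CPM in SD7, against 143, 117 and 144 CPM in CD7 (-0.02 ± 0.15). In ND-42, UQCR-C1 and UQCR-C2 replicate 1 of SD7 was the lowest library and replicate 2 lay among the CD7 libraries, and in COX4 the groups overlapped.

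Copies had a median of 0.38 in SD7 against CD7, with wide spread. The sign of this median rested on 1 library, since it was -0.25 without SD7 replicate 1 and 0.77 without SD7 replicate 2. COX6AL2, a copy of the complex IV subunit levy, had 10.9 and 3.96 CPM in SD7 and 2.04, 4.74 and 5.81 CPM in CD7 (0.83 ± 0.60, edgeR adjusted p = 0.926). Replicate 1 of SD7 was above all CD7 libraries and replicate 2 was among them. That replicate also had the highest testis marker sum of all Gr5a libraries, 1574 CPM, where replicate 2 had 694 CPM.

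**Figure D4:**
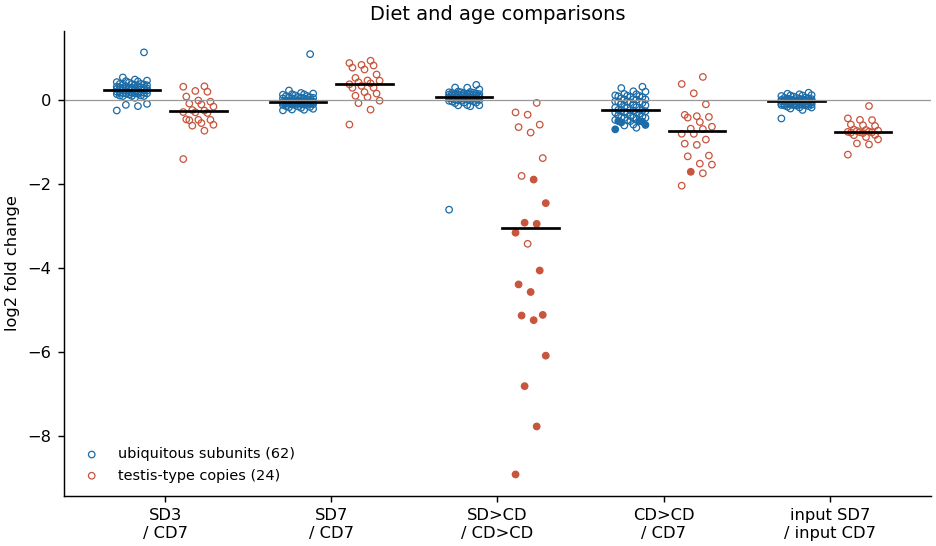
Log2 fold changes of 62 subunits (blue) and 24 copies (red) in 4 diet comparisons of the Gr5a fraction, SD3 over CD7, SD7 over CD7, SD>CD over CD>CD and CD>CD over CD7, and in 1 of the input, SD7 over CD7; filled points passed at an adjusted p under 0.1 and bars are medians. The gap between the medians is widest in SD>CD over CD>CD, at 0.06 for subunits and -3.06 for copies.

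The return to the control diet gave the largest difference between the classes. In SD>CD against CD>CD 15 of 24 copies were lower and none higher, and 0 of 62 subunits were called by edgeR, where 13.3% of all genes passed and 13.1% were lower. At an unadjusted p under 0.05 there were 18 copies and 1 subunit, ND-B8, a count given without the share of all genes. DESeq2 called 18 copies and 0 subunits, among 2118 of all genes. The median log2 fold change was -3.06 over the copies as fitted and -2.94 with the genes at 0 set to their bound, 0.06 over the subunits and -0.03 over all genes. All genes of 400 to 1000 bases had a median of -0.40, and those over 1000 bases 0.01. The part of length was not tested. For 20 of the 24 copies, both SD>CD values were below both CD>CD values, which held for 1 of 62 subunits and for 26.7% of all genes. Subunit intervals lay within 1.5-fold for 50 of 62 and within 2-fold for 61.

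The core subunits overlapped between the groups. ND-75 had 269 and 238 CPM in SD>CD and 227 and 239 CPM in CD>CD (0.12 ± 0.11), and SdhA had 326 and 274 CPM in SD>CD and 274 and 283 CPM in CD>CD (0.11 ± 0.11). UQCR-C2 had 281 and 253 CPM in SD>CD and 221 and 256 CPM in CD>CD (0.16 ± 0.12). In each of these the libraries of SD>CD and CD>CD were interleaved. COX4 had 137 and 129 CPM in SD>CD and 101 and 136 CPM in CD>CD (0.17 ± 0.17). ATPsynbeta had 461 and 465 CPM in SD>CD and 388 and 501 CPM in CD>CD (0.06 ± 0.14). They overlapped as well, and no difference of these 5 was detectable with 2 libraries a group.

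Copies of complex II fell as a whole. SdhBL, the iron-sulfur copy at X:18894446-18896581 on the plus strand, had 0.125 and 0.257 CPM in SD>CD and 4.21 and 9.20 CPM in CD>CD, from 9 and 370 counts in all (-5.12 ± 0.77, edgeR adjusted p = 0.00228). SdhCL, the anchor copy at 3R:11114671-11115706 on the minus strand, had 0.0418 and 0.0428 CPM in SD>CD and 1.10 and 2.08 CPM in CD>CD. With 2 counts against 87 its level in CD>CD was 39.5 times that in SD>CD, with an exact counting interval of 10.6 to 331 (-5.13 ± 0.94, edgeR adjusted p = 0.00592). SdhAL, the flavoprotein copy, had 0.209 and 0.257 CPM in SD>CD and 2.38 and 1.85 CPM in CD>CD (-3.16 ± 0.59, edgeR adjusted p = 0.00655). In all 3 the groups did not overlap. The counting intervals cover counting error only.

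In complex IV, COX6AL2 at 3L:18908260-18914150 on the minus strand was at 0 in both SD>CD libraries and had 0.915 and 2.38 CPM in CD>CD from 92 counts, with exons partly shared with Ir75d. With a floor of 3 counts over the group, it was at least 27.9-fold lower in SD>CD (edgeR adjusted p = 0.00948). COX4L, at 2R:5353994-5354723 on the plus strand, had 0.543 and 0.342 CPM in SD>CD and 1.56 and 5.29 CPM in CD>CD (-2.95 ± 0.61, edgeR adjusted p = 0.0109). COX6CL, a copy of cype, had 0.125 and 0.128 CPM in SD>CD and 0.732 and 1.22 CPM in CD>CD (-2.93 ± 0.60, edgeR adjusted p = 0.0103). COX7AL had -2.46 ± 0.69 and COX5BL -1.90 ± 0.52 (edgeR adjusted p = 0.0472 and 0.0419). The groups did not overlap in COX6AL2, COX4L or COX6CL. Not called were COX6AL (-1.81 ± 0.63), COX7AL2 (-0.65 ± 0.60) and COX7CL (-0.30 ± 0.55).

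Complex I had 4 copies lower. ND-49L, at 3R:25358285-25360034 on the plus strand, had 0.0418 and 0 CPM in SD>CD and 0.961 and 2.35 CPM in CD>CD, and its level in CD>CD was 83.6 times that in SD>CD with a counting interval of 14.6 to 3336 (1 count against 92, edgeR adjusted p = 0.00285). ND-B14.5AL had 1 count against 51, a ratio of 46.3 (7.95 to 1865, edgeR adjusted p = 0.00838), and ND-20L 2 against 52, a ratio of 23.6 (6.22 to 200.2, edgeR adjusted p = 0.0275). ND-24L was at 0 in SD>CD and had 21 counts in CD>CD, which makes it lower by at least 6.36-fold (edgeR adjusted p = 0.0298). All 4 rest on SD>CD libraries with 2 counts or fewer. In complex III UQCR-14L was at 0 against 42 counts, at least 12.7-fold lower (edgeR adjusted p = 0.0183), and UQCR-6.4L had 1 count against 22, a ratio of 20.0 (3.23 to 825, edgeR adjusted p = 0.0562). ATPsynGL was the 1 called copy of complex V, with 1 count against 33 and a ratio of 30.0 (5.02 to 1219, edgeR adjusted p = 0.0410). ATPsynbetaL, the copy of the catalytic subunit, had 2 counts against 27, a ratio of 12.3 (3.08 to 106), and was not called (edgeR adjusted p = 0.112).

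Of the 6 copies inside a longer gene of their strand 1 was called, SdhAL, and of the 18 others 14. UQCR-11L, at 2R:8677219-8677661 on the plus strand inside Acsl, had 3.26 and 6.71 CPM in SD>CD and 7.91 and 2.65 CPM in CD>CD (-0.08 ± 0.58). ND-51L1, at 2R:17595267-17597409 on the plus strand inside Smurf, had 3.59 and 3.89 CPM in SD>CD and 6.91 and 2.71 CPM in CD>CD (-0.36 ± 0.44). The groups overlapped in both. The 6 together made up 73.6 and 79.7% of the summed level of all copies in the SD>CD libraries, against 58.6% in CD>CD replicate 1 and 18.9 to 31.1% in the other 13 libraries.

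Outside the name rule, 1 of 2 testis forms of the chain was lower. Cyt-c-d, the cytochrome c of the male germ line, had 0.0836 and 0.299 CPM in SD>CD and 1.92 and 4.43 CPM in CD>CD (-4.05 ± 0.71, edgeR adjusted p = 0.00496). Cyt-c1L, a copy of the cytochrome c1 gene of complex III, was not called, with 10 and 10 counts in SD>CD and 9 and 28 counts in CD>CD (-0.68 ± 0.64, edgeR adjusted p = 0.760). Of the TCA cycle genes 0 of 15 and of the mitochondrially encoded subunits 0 of 13 were called by edgeR, at an unadjusted p under 0.05 or by DESeq2. Ant2 was the 1 of 9 further nuclear chain genes that fell (-1.08 ± 0.35, edgeR adjusted p = 0.0924), and the related translocase sesB was at -0.04 ± 0.15. Of the testis markers 33 of 41 tested were lower, with a median of -5.14, and their sum was 32.6 and 25.4 CPM in SD>CD, against 269 and 580 CPM in CD>CD, with 4 of the 42 at 0 in both SD>CD libraries. Midgut markers summed to 20.8 and 36.5 CPM in SD>CD and 1488 and 3423 CPM in CD>CD, with 7 of 24 at 0 in SD>CD and 1 in CD>CD. Accessory gland markers summed to 0.961 and 1.41 CPM in SD>CD and 80.8 and 129 CPM in CD>CD, with 4 of 15 at 0 in SD>CD. The part of these organs in the fall of the copies was not tested. The 18 copies that do not lie within a longer gene of their strand stood at 5.23 to 6.66% of the testis marker sum in the 14 libraries other than SD>CD, and at 10.3 and 12.6% in SD>CD, from 80 and 75 counts.

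The calls depended on single libraries in number. Without CD>CD replicate 2, the library with sugar-like CNMa and Lsp2, 8 copies were called, all of them among the 15, and without CD>CD replicate 1 there were 16 copies and 1 subunit. Leaving out SD>CD replicate 1 or 2 gave 10 or 9 calls. COX6AL2, SdhAL, SdhBL, SdhCL and COX6CL were called under every alternative that could test them. Asking for 10 counts or more in each library left 7 copies to test, of which 0 were called, since it removes a copy that is near 0 in SD>CD.

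Whether this response differed from that at 7 days of sugar was tested as the difference of SD>CD against CD>CD and SD7 against CD7. It was negative and passed for 15 copies and for 0 subunits with edgeR, where 12.3% of all genes passed and 11.9% were negative. At an unadjusted p under 0.05 there were 18 copies and 1 subunit, again without the share of all genes. DESeq2 called 17 copies and 1 subunit, among 2037 of all genes. Medians were -3.36 over the copies and 0.11 over the subunits. All genes of 400 to 1000 bases had a median of -0.60, and those over 1000 bases -0.02. In the same contrast 33 of 41 testis markers (median -5.52), 13 of 15 accessory gland markers (median -6.55) and 13 of 21 midgut markers (median -6.03) were called negative, and their part in the difference of the copies was not tested. For SdhBL the difference was -5.40 ± 0.90 (edgeR adjusted p = 0.00587), made of -5.12 after the return and 0.28 at 7 days. For SdhCL it was -5.59 ± 1.08 (edgeR adjusted p = 0.0107), made of -5.13 and 0.45.

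Flies kept on the control diet throughout were compared at 14 and 7 days, as CD>CD against CD7. Of 62 subunits 6 were lower and none higher, and of 24 copies 1, COX6CL, was lower, while 14.1% of all genes were called and 6.46% lower. Medians were -0.24 over the subunits, -0.75 over the copies and -0.06 over all genes. The median of the subunits was -0.02 without CD>CD replicate 1 and -0.48 without CD>CD replicate 2, beside -0.05 and -0.14 over all genes. The groups lie in different series of library numbers, so age and series cannot be told apart. CD>CD replicate 1 had 58.39% of its reads in rows without a gene, the highest of the libraries that list such rows, and 93.62% of strand-specific counts on the strand of the gene, the lowest.

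Markers of other cell types moved in the same comparison. All 17 photoreceptor markers had a positive fold change and 9 were called higher, with sums of 29608 and 22909 CPM in CD>CD and 15071, 20626 and 13384 CPM in CD7. Of 16 muscle markers 5 were called lower, with sums of 3348 and 3586 CPM in CD>CD and 4628, 6458 and 5336 CPM in CD7. Of 15 accessory gland markers 12 were called lower, with sums of 80.8 and 129 CPM in CD>CD and 264, 336 and 314 CPM in CD7. Of 41 testis markers 6 were called lower, with sums of 269 and 580.3 CPM in CD>CD and 595, 1060 and 897 CPM in CD7. The part of these cell types and of that library in the values of the chain was not tested.

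Of the 6 subunits 3 belong to complex IV. The summed level of its 8 subunits was 631 and 824 CPM in CD>CD and 1089, 868 and 1122 CPM in CD7, without overlap. Complex V did not overlap either, with 1956 and 2442 CPM in CD>CD and 2806, 2548 and 2956 CPM in CD7. The 9 chain genes outside the name rule had 1904 and 2225 CPM, against 2440, 2370 and 2669 CPM. The sums of complexes I, II and III overlapped. COX6B, which in mammals bridges the dimer of the complex, had 136 and 170.5 CPM in CD>CD and 262, 209 and 279.7 CPM in CD7 (-0.70 ± 0.16, edgeR adjusted p = 0.0337). COX7A had 112 and 129.9 CPM in CD>CD and 196, 162 and 192 CPM in CD7 (-0.60 ± 0.12, edgeR adjusted p = 0.0240), and COX5A had 97.0 and 128 CPM in CD>CD and 167, 141 and 176 CPM in CD7 (-0.52 ± 0.14, edgeR adjusted p = 0.0553). All CD>CD values of the 3 lay below all CD7 values. In complex V ATPsynC had 726 and 842 CPM in CD>CD and 1100, 1039 and 1211 CPM in CD7 (-0.51 ± 0.13, edgeR adjusted p = 0.0462), and in complex III UQCR-14 and UQCR-Q were at -0.54 ± 0.17 and -0.51 ± 0.14. Among the subunits over 1000 bases, ND-75 had 227 and 239 CPM in CD>CD and 179, 208 and 190.2 CPM in CD7 (0.28 ± 0.10, edgeR adjusted p = 0.126), and UQCR-C2 had 221 and 256 CPM in CD>CD and 178, 202 and 198 CPM in CD7 (0.31 ± 0.11, edgeR adjusted p = 0.115). Neither passed, and ATPsynbeta, also over 1000 bases, was at -0.28 ± 0.13 (edgeR adjusted p = 0.199).

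The difference ran with the length of the mRNA. Over 61 subunits, leaving out ND-B8, exon length and log2 fold change had a Pearson r of 0.42 and a Spearman rho of 0.44, across genes, which are not independent replicates. The 40 subunits of up to 1000 bases had a median of -0.26, and the 21 longer ones -0.05. All genes showed it too, with a Pearson r of 0.20 over 13531 genes and medians of -0.38 for the 2909 genes of 400 to 1000 bases and 0.00 for the 10014 over 1000 bases. These length values are of the full set of libraries and were not computed without single libraries. What part length has in the 6 calls was not tested.

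**Figure D5:**
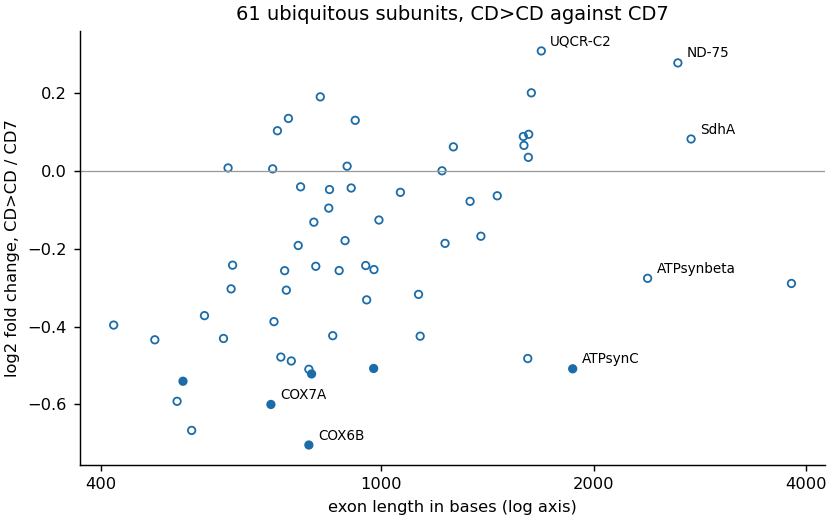
Log2 fold change of CD>CD over CD7 in the Gr5a fraction against exon length in bases (log axis) for 61 ubiquitous subunits, 1 point each; filled points passed at an adjusted p under 0.1. The 6 filled points are all lower in CD>CD, and the median is -0.26 for subunits of up to 1000 bases and -0.05 for longer ones.

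Beyond the name rule, cype, the fly COX6C, was lower in CD>CD (-0.63 ± 0.20, edgeR adjusted p = 0.0842), and sesB, an ADP/ATP translocase, likewise (-0.48 ± 0.13, edgeR adjusted p = 0.0611). Of 8 regulators of mitochondrial genes 2 were higher, the transcription factor ewg (0.65 ± 0.14, edgeR adjusted p = 0.0284) and the mitochondrial RNA polymerase PolrMT (0.49 ± 0.10, edgeR adjusted p = 0.0246). Of 15 TCA cycle genes Idh alone passed (-0.42 ± 0.13). The 7 calls of the chain became 0 without CD>CD replicate 1 and 32 without CD>CD replicate 2, and 0 when these groups were fitted alone.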

How the data were processed

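RNA of 11 Gr5a libraries and 5 input libraries was depleted of rRNA and sequenced. The authors aligned reads to BDGP6 (dm6) with STAR, and the deposited values are raw read counts by gene, neither normalized nor pooled. The submitters' notes also name HTSeq, SAMtools 1.4 and DESeq2 1.18.0, and the version of STAR is not given in the sources used here. Of the 3 count columns of 15 libraries, the same-strand column held over 80% of strand-specific counts and was used. Gr5a CD7 replicate 1 has 1 column, taken as same-strand: at genes where columns are far apart, the median absolute log2 ratio of its counts was 0.302 and 0.244 to that column of the other CD7 libraries and 3.95 and 4.26 to the unstranded one. Rows without a gene, 32.09 to 58.39% of reads where listed, stayed out. Read sharing between a copy and its subunit was not tested. Positions and exon lengths came from the Ensembl annotation of BDGP6.

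Counts were tested in R 4.3.3 with edgeR 4.0.16 (filterByExpr, TMM, prior count 0.125, quasi-likelihood F test, Benjamini-Hochberg over all genes tested, adjusted p under 0.1 as in the study), after a check on simulated counts. The 11 Gr5a libraries were fitted together (13758 genes), and so were the 10 libraries of day 7 (14185 genes). SE is the log2 fold change over the square root of F, and intervals are 95%. Counts at an unadjusted p under 0.05 are given without the share over all genes, except in SD7 against CD7. They therefore have no background here. Depth limits single values by counting error, covered by exact intervals and a floor of 3 counts.

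Same-numbered Gr5a and input libraries of CD7 deviated together (correlations 0.348, 0.233 and 0.279), and their numbers were taken as pairs. In SD7 the correlation was -0.265. Alternatives were the unstranded column, DESeq2 size factors, the DESeq2 1.42.0 Wald test, no filter on low counts, a minimum of 10 counts in each library, the compared groups alone, other control groups, the replicate number as a block, scaling by total alone, and leaving out each library. A crossed block of SD7 was chosen after seeing the data.

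Genes, classes and lists were chosen with earlier results of these data known. The text names core subunits, testis-type copies and, by comparison, the called genes that rose or fell most (up to 3 each way). Other named genes were picked after their values were seen. Of the listed symbols 9 of 10 further chain genes, 15 of 19 TCA cycle genes, 8 of 10 regulators and 42 of 47 testis markers were found.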

Additional observations from a re-analysis of the deposited data

Results flagged for a closer look

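The response of the testis-type copies after the return to the control diet differed from their response at 7 days of sugar. The difference of the log2 fold changes, SD>CD over CD>CD minus SD7 over CD7, passed the test of the difference itself (edgeR, adjusted over all genes) for 15 copies and was negative in each. In complex I it was -6.90 for ND-49L, -6.73 for ND-24L, -5.63 for ND-B14.5AL and -5.11 for ND-20L. In complex II it was -5.59 for SdhCL, -5.40 for SdhBL and -3.26 for SdhAL. UQCR-14L of complex III was at -7.92. Complex IV had -9.74 for COX6AL2, -3.47 for COX4L, -3.255 for COX6CL, -2.875 for COX7AL and -2.74 for COX6AL. Complex V had -5.175 for ATPsynGL and -2.26 for ATPsynCF6L. Adjusted p-values ran from 0.00486 (ND-49L) to 0.0639 (COX7AL). The fitted values of COX6AL2, UQCR-14L and ND-24L, at 0 in both SD>CD libraries, depend on the prior count and are no bound. Testis markers (33 of 41), accessory gland markers (13 of 15) and midgut markers (13 of 21) were called negative in the same contrast, and their part was not tested. All comparisons with SD>CD rest on its condition label, and no group of the study has the 4 libraries that a check for a library far from the others needs.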

How the results depend on the processing

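Numbers of genes of the chain called moved with the processing as follows, and the cause was not tested except where an alternative leaves fewer genes or libraries. SD>CD against CD>CD (15) gave 0 with at least 10 counts in every library (7 copies left), 8 with the groups alone, 34 with CD7 as the control and 8 to 17 without single libraries. CD>CD against CD7 (7) gave 4 unstranded, 19 with DESeq2, 11 with at least 10 counts, 0 with the groups alone, 0 with the replicate block and 0 to 32 without single libraries. The difference of SD>CD against CD>CD and SD7 against CD7 (15) gave 9 unstranded, 0 with at least 10 counts and 9 to 17 without single libraries. The fraction against input gave, in CD7 (32), 52 with the replicate block and 18 to 29 without single libraries, and in SD7 (7) 0 with the groups alone, 0 with the block, 4 with the crossed block and 1 to 7 without single libraries. Input SD7 against CD7 (0) gave 2 with DESeq2, 1 with the block and 0 to 3 without single libraries, and SD3 against CD7 (0) gave 28 with CD>CD as the control. SD7 against CD7 and the interaction stayed at 0 without any single library. Where it was run, the block changed no other call count of the chain. Calls over all genes moved too. They were 5982 in SD>CD with CD7 as the control, against 1828 as reported. In SD3 with CD>CD as the control they were 3176, against 6. CD>CD against CD7 had 3138 with DESeq2, against 1942, and the CD7 fraction 7915 with the block, against 6556. The block also raised them to 503 from 6 in SD3 against CD7 and to 119 from 0 in SD7 against CD7. In input SD7 against CD7 it gave 860, against 10. It lowered them to 20 from 1942 in CD>CD against CD7 and to 315 from 2655 in the SD7 fraction. ATPsynC in SD>CD against CD>CD, 0.06 as reported, was -0.45 with CD7 as the control. The summed level of the subunits in SD3, 7468 CPM, was 7985 CPM scaled by the total alone. Called genes of the chain kept their direction under every alternative that could test them, and lost their call in 33 of 82 gene-by-alternative cases in CD>CD against CD7, 25 of 146 in SD>CD against CD>CD, 36 of 211 in the difference, 72 of 415 in the CD7 fraction and 33 of 84 in the SD7 fraction. Core subunits that were not called and lay near 0 changed sign under at least 1 alternative, 8 of them in SD7 against CD7 and 14 in SD>CD against CD>CD (COX4 at 7 days ran between -0.16 and 0.12). In SD>CD 11 copies had 3 counts or fewer in both libraries, which limits their folds.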
